A study of Mus musculus with 52 samples.

Results

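The 10 genes described here encode the transcription factors of naive pluripotency in the mouse: Klf2, Klf4, Klf5, Esrrb, Nr0b1, Nr5a2, Tbx3, Zfp42, Tfcp2l1 and Prdm14. They were taken by symbol from a table of 55291 genes, and all 10 were among the 25056 genes that passed the filter on low counts. The table holds 52 RNA-seq libraries of mouse stem cells and of aggregates grown from them, with 2 libraries in every group. All groups carried a wild-type genotype. Extended pluripotent stem cells (EPSCs, line mc6-1/Mu-mClover3-10#, kept in LCDM medium) and 2i/L-cultured embryonic stem cells (mESCs, line 2i-0606-td-ES) were the starting cells, each represented by 1 line. A first set of 12 libraries held EPSC libraries 1 and 2 and EPSCs after 2 days in the totipotency medium (stage S1), or after 2 days with the GSK3 inhibitor CHIR-99021 (CHIR), given by itself or with Elvitegravir, PD0325901 or CD1530. A second set of 40 held EPSC libraries 3 and 4, EPSCs passaged 25 or 38 times in the totipotency medium (P25, P38), mESCs with and without 2 days of that medium, and aggregates. The aggregates were followed after 1 day in a medium named 4C-64C (S2) and after 1 further day in it (S3). Those of S5 came from S4 on day 1, a stage without libraries here, after 3 days in a peri-implantation medium on Aggrewell. At S2 and S3, 4 groups each lacked 8Br-cAMP, Birabresib, CHIR or CD1530, and at S5, 4 groups lacked Activin A, BMP4, FGF4 or XAV939. EPSC comparisons used the EPSC libraries of the same set.

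Naive pluripotency is the state of the preimplantation epiblast, and in culture it is held by inhibitors of MEK and of GSK3 together with the cytokine LIF. LIF acts through STAT3, which switches on Klf4 and Tfcp2l1. GSK3 inhibition relieves the repressor Tcf7l1, which otherwise holds down Esrrb, Klf2 and Tfcp2l1. MEK inhibition spares KLF2 protein, which ERK marks for degradation, and raises Prdm14. The factors bind one another's genes and those of Pou5f1, Sox2 and Nanog, so that several can stand in for each other, and most are turned off as the epiblast becomes formative after implantation.

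Promoter sequences of 4 members are shown because results below concern these genes: Klf2 fell and Klf4 rose with CD1530, Tfcp2l1 rose with both PD0325901 and CD1530, and Zfp42, the usual marker of the naive state, was called in EPSCs but not in mESCs after the totipotency medium, as were Klf2, Prdm14 and Nr5a2. Whether the sequences have a part in these results was not tested. Each is the RefSeq sequence on GRCm38.p6 from 250 bases before to 50 bases after the start of the gene, read along the gene. Capitals mark letters that match a searched motif on either strand. The Klf2 window is chr8:72318812-72319111 (plus strand), with 2 GC boxes (GGGGCGGGG) and an overlapping pair of matches to the spaced site named for Tfcp2l1. The Klf4 window is chr4:55532426-55532725 (minus strand), with 3 GC boxes and 1 Tfcp2l1-type match. The Tfcp2l1 window is chr1:118627695-118627994 (plus strand), with 2 CACCC boxes (GGGNGTGG). The Zfp42 window is chr8:43306960-43307259 (minus strand), with 1 CACCC box and 1 extended nuclear receptor half-site of the kind that Esrrb and Nr5a2 recognise (TCAAGGNCA).
Klf2: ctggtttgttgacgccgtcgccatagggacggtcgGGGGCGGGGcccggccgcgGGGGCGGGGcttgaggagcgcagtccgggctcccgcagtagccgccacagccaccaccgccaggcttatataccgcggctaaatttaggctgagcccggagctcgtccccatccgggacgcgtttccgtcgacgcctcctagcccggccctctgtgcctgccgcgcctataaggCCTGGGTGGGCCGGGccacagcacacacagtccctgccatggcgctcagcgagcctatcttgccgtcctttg
Klf4: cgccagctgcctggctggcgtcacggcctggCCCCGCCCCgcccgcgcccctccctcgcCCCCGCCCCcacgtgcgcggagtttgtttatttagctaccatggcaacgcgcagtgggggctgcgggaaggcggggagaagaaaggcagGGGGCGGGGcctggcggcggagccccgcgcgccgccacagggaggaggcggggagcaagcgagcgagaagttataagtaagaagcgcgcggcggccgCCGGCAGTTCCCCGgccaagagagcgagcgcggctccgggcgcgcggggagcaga
Tfcp2l1: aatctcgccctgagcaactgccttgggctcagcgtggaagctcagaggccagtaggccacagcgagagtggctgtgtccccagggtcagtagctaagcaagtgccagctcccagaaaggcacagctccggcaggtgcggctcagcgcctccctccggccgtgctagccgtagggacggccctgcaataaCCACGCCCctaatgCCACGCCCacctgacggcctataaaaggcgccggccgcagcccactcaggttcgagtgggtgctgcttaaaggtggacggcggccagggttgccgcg
Zfp42: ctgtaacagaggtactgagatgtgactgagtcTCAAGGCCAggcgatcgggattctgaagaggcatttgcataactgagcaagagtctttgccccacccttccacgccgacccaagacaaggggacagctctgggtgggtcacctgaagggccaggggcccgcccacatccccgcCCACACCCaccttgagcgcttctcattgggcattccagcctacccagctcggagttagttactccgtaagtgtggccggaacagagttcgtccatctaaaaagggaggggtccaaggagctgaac
Over all 32851 windows of that length, 11.4% held the GC box, 17.6% the CACCC box, 29.5% the Tfcp2l1-type match and 1.62% the half-site. Windows were found for 7 members, 9 windows in all, because Esrrb and Nr5a2 have 2 each. A STAT site (TTCNNNGAA) was in 1 of the 9, that of Esrrb, against 8.3% of all windows. Neither a DR5 retinoic acid element, held by 0.1% of all windows, nor any match to the TCF site CTTTGAT, the cAMP element TGACGTCA or the ETS site CCGGAAGT was found in the 9 windows, and the last 3 were held by 3.73%, 1.79% and 3.89% of all windows. A match is a string of letters and not a measured binding site. Klf5, Tbx3 and Prdm14 are named only.

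The genes lie apart in the genome, on mm10: Klf2 at chr8:72319033-72321656, Klf4 at chr4:55527143-55532466, Klf5 at chr14:99298691-99315036, Esrrb at chr12:86361117-86521628, Nr0b1 at chrX:86191764-86195947, Tbx3 at chr5:119670669-119684724, Zfp42 at chr8:43295063-43306980, and Tfcp2l1 (chr1:118627945-118685168), Prdm14 (chr1:13113457-13127163) and Nr5a2 (chr1:136842571-136960448) on chromosome 1. Exons of other genes covered 1.74% of the exon bases of Tbx3, by the antisense gene Tbx3os1, and 1.38% of those of Tfcp2l1, and none of the other 8. The pseudogene Zfp42-ps1 drew from 0.936% to 4.5% as many counts as Zfp42, so the split of reads between the pair is uncertain.

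Libraries held from 16.6 to 108 M counts. In 46 libraries the low counts were mostly even, as when both mates of a read pair are counted, and in the other 6 (EPSC libraries 3 and 4, P25 and P38) they were not. Sox2 had no count in the 12 libraries of the first set and a mean of 518 CPM in EPSC libraries 3 and 4, so levels are not set across sets below unless this is said. Values are CPM (counts scaled to a common library size with TMM factors), and the standard error (SE) stands beside each log2 fold change. A gene is called, and said to have risen or fallen, at an edgeR adjusted p under 0.05 with a log2 fold change of at least 1 in size. Counts of members at an unadjusted edgeR p under 0.05 have no share over all tested genes beside them. Whether the 2 libraries of a group stem from separate cultures is not in the labels, so p-values and SE rest on a spread that may be technical. The fit estimated that spread over all groups, so it is not that of the compared groups alone. In bulk RNA, fewer cells that express a gene and less RNA per cell cannot be told apart.

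**Figure D1:**
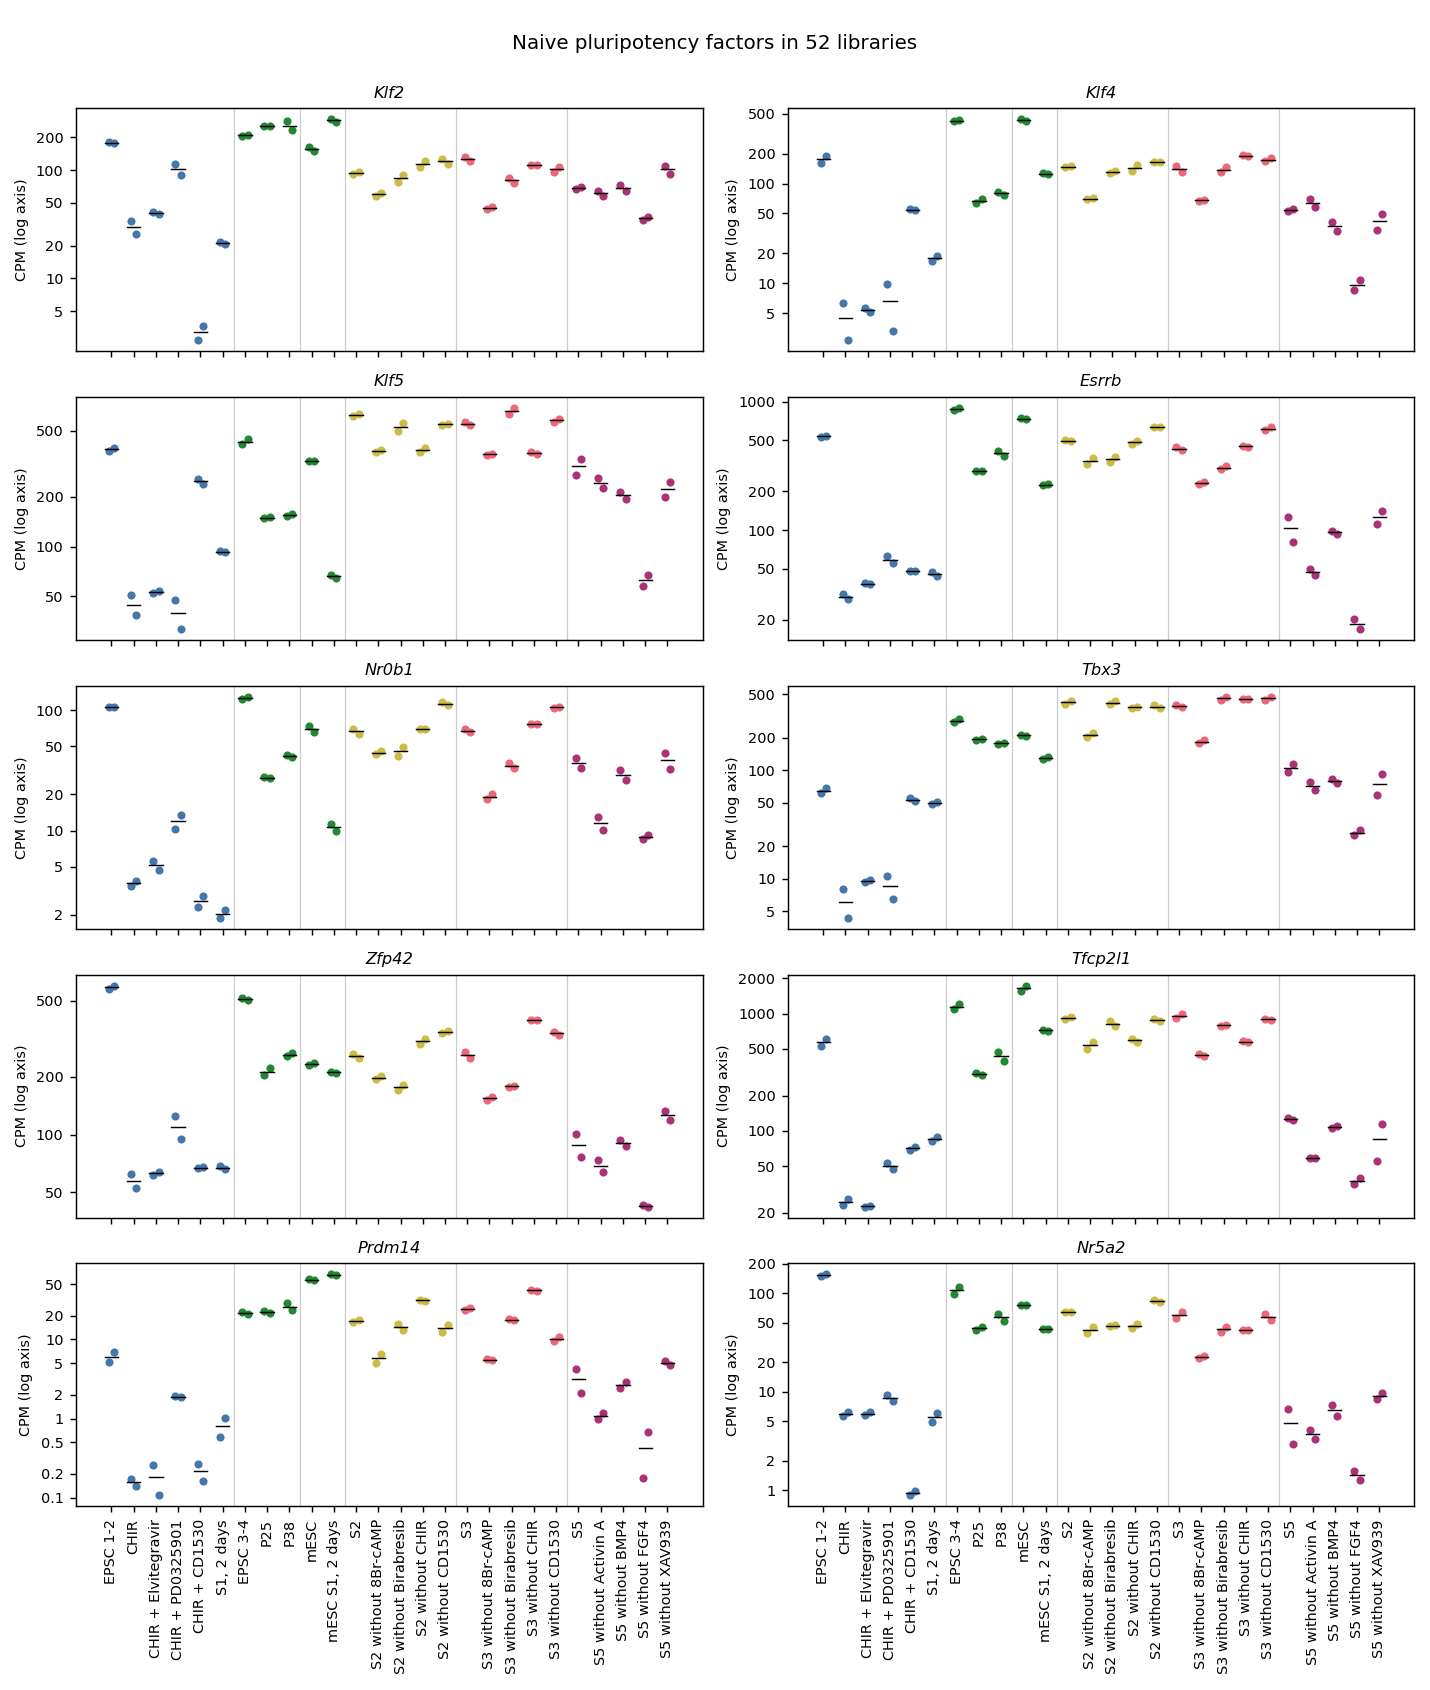
Level of each naive pluripotency factor in all 52 libraries, in CPM on a log axis. Each point is 1 library, the short black line is the mean of the group's 2 libraries, and vertical lines part the first set, the EPSC and mESC groups of the second set, and stages S2, S3 and S5. Both libraries of a group lie close together for most members. The lowest points belong to the CHIR groups, 2-day S1 and S5 without FGF4.

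In the starting cells all 10 factors were expressed, over a wide range of levels per unit of transcript length. Zfp42, a zinc finger protein also known as Rex1 that serves as the usual marker of the naive state, was the highest in EPSC libraries 1 and 2 at 313 CPM per kb of exon. Klf2 (96.9), Esrrb (89.0), Klf5 (74.4), Tfcp2l1 (60.3), Nr0b1 (59.2) and Klf4 (57.4 CPM per kb) formed a middle group. Nr5a2 stood at 25.6, Tbx3 at 9.81 and Prdm14 at 2.37 CPM per kb. The EPSC libraries of the second set had the same leader and the same last member, with 271 CPM per kb for Zfp42 and 8.46 for Prdm14. The sets were not alike for every factor: Tbx3 was at 61.2 and 68.8 CPM in EPSC libraries 1 and 2 and at 277 and 298 in libraries 3 and 4, and Klf4 was at 162 and 187 against 420 and 437 CPM. Zfp42 (578 and 598 against 515 and 502 CPM) and Klf2 (180 and 178 against 206 and 211) lay closer. Pou5f1, the core pluripotency factor, was at a mean of 274 CPM in EPSC libraries 1 and 2 and 888 CPM in libraries 3 and 4, and Nanog was at 219 and 416 CPM.

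The mESCs held the same factors in another proportion. Prdm14, a PR-domain repressor that keeps FGF receptor signalling and DNA methylation low in naive cells, was at 57.3 and 55.6 CPM in mESCs and at 22.3 and 21.2 in EPSC libraries 3 and 4, so it rose (log2 fold change 1.38, SE 0.21). Zfp42 was at 231 and 237 CPM in mESCs against 515 and 502 in EPSCs and fell (−1.12, SE 0.10). These were the 2 members called, 1 in each direction, against 9.66% of tested genes that rose and 9.94% that fell. Low counts were mostly even in mESCs but not in EPSC libraries 3 and 4. With the counts halved in the libraries of mostly even counts, no call of a member changed here. Klf4 did not differ beyond the spread of its libraries, which overlapped (440 and 419 CPM in mESCs, 420 and 437 in EPSCs). Tfcp2l1, a grainyhead-family factor downstream of LIF and STAT3, was the highest member per kb of exon in mESCs (174 CPM per kb), at 1550 and 1730 CPM against 1090 and 1200 in EPSCs (0.52, SE 0.15). ERK feedback genes, which report MEK and ERK signalling, were lower in mESCs for 8 of 10. The sum of 8 fibroblast feeder markers was 2190 to 2290 CPM in mESCs and 725 to 738 CPM in EPSC libraries 3 and 4, and its part in these differences was not tested.

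CHIR given to EPSCs for 2 days came with lower messenger of every naive factor. All 10 fell, against 6.99% of tested genes, with log2 fold changes from −5.21 to −2.57 and a median of −4.33, beside 0 for all tested genes. No library of the CHIR group reached the lower EPSC library for any of the 10. The share of all tested genes with such a separation is not given. Klf4, a Krüppel-like factor and direct STAT3 target, went from 162 and 187 CPM to 6.37 and 2.67 (−5.21, SE 0.27, edgeR adjusted p = 3.1e-18). Klf5, which also acts in trophectoderm, went from 379 and 396 to 50.7 and 38.4 CPM (−3.12, SE 0.13). Klf2, the third of the Krüppel-like trio, kept the most, with 34.2 and 25.7 CPM against 180 and 178 (−2.57, SE 0.13). Among the nuclear receptors, Esrrb, an orphan receptor that is a chief target of Tcf7l1, went from 536 and 540 to 31.6 and 29.0 CPM (−4.15, SE 0.13). Nr0b1, the co-repressor Dax1 that partners with Esrrb and Oct4, went from 107 and 106 to 3.47 and 3.80 CPM (−4.88, SE 0.16). Nr5a2, also called Lrh-1, which can replace Oct4 in reprogramming, went from 148 and 155 to 5.61 and 6.26 CPM (−4.68, SE 0.19). The remaining 4 followed the same course. Tbx3, a T-box factor under PI3K control, went to 7.96 and 4.36 CPM from 61.2 and 68.8, and Tfcp2l1 to 23.5 and 26.4 from 531 and 606. Zfp42 went to 62.1 and 52.6 CPM from 578 and 598. Prdm14 was left with 8 and 4 counts in the CHIR libraries, or 0.173 and 0.141 CPM, against 5.17 and 6.97 CPM in EPSCs. Klf2 thus had the smallest and Klf4 and Prdm14 the largest fall in CHIR.

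Genes that share the pathways of these factors were measured beside them in CHIR. Of 15 other naive pluripotency genes 11 fell and 0 rose, and of the 4 core factors Pou5f1, Nanog and Sall4 fell. Of 10 LIF and STAT3 genes 6 fell, among them the feedback inhibitor Socs3 (135 to 2.8 CPM in the group means) and Stat3 (146 to 31.5 CPM). Of 12 Wnt and TCF genes 6 fell and 0 rose, with Axin2, the usual Wnt target, at 28.1 CPM against 117. The medium around CHIR in this arm is not given in the labels, while LCDM by its published formula holds LIF and CHIR. Of 14 primitive and visceral endoderm markers 11 rose, and their sum was 297 to 332 CPM against 19.4 to 20.8 in EPSCs. The feeder marker sum was 80.3 to 82.5 against 273 to 299 CPM. The part of these markers in the fall of the naive factors was not tested.

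**Figure D2:**
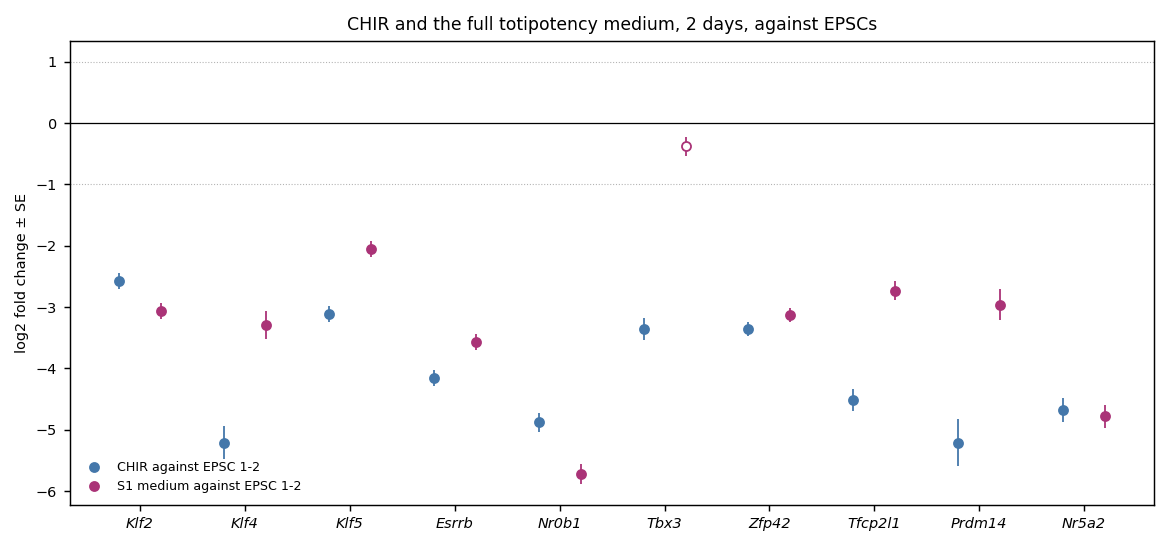
Log2 fold change (± SE) of the 10 factors after 2 days of CHIR and after 2 days in the totipotency medium, both against EPSC libraries 1 and 2. Filled points are called and open points are not, and dotted lines mark −1 and 1. All CHIR points lie under −1, and Tbx3 in the totipotency medium (−0.38) is the open point.

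The full totipotency medium for 2 days left 9 of the 10 factors lower than in EPSCs, against 9.16% of tested genes that fell. The comparison shares its EPSC libraries with the one for CHIR. Nr0b1 fell most, to 1.88 and 2.20 CPM from 107 and 106 (−5.72, SE 0.16, edgeR adjusted p = 2.6e-26). Nr5a2 came to 4.92 and 6.10 CPM from 148 and 155 (−4.78, SE 0.19), and Esrrb to 46.9 and 44.0 from 536 and 540 (−3.57, SE 0.13). The Krüppel-like factors fell in the order Klf4 (16.8 and 18.9 CPM, −3.29, SE 0.23), Klf2 (21.6 and 21.0, −3.07, SE 0.13) and Klf5 (93.5 and 93.1, −2.05, SE 0.13). Zfp42 fell to 68.8 and 65.9 CPM (−3.13, SE 0.11), Tfcp2l1 to 82.7 and 89.1 (−2.73, SE 0.16) and Prdm14 to 0.582 and 1.01 (−2.96, SE 0.25). Tbx3 stood at 49.0 and 50.8 CPM against 61.2 and 68.8 (−0.38, SE 0.16, edgeR adjusted p = 0.042) and was not called. With all 4 EPSC libraries as the reference Tbx3 fell (−1.82), and its levels in EPSC libraries 3 and 4 were 277 and 298 CPM. Beside the members, 12 of 15 other naive genes and 10 of 10 ERK feedback genes fell, with the ERK feedback gene Spry4 at a mean of 1.64 CPM against 170. All 9 tested 2-cell markers rose, and 8 of 12 trophectoderm markers rose, whose sum was 1090 to 1430 CPM against 98 to 110. The feeder marker sum was 287 to 308 CPM in S1 and 273 to 299 in EPSCs. The share of these other markers in the result was not tested.

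Of the 3 compounds added to CHIR, PD0325901 and CD1530 moved naive factors past the call and Elvitegravir did not. Elvitegravir, an HIV integrase inhibitor, left 0 of the 10 called, against 0.00798% of tested genes. The count at an unadjusted edgeR p under 0.05 was 4, and DESeq2 called 0. Tbx3 was the farthest from 0, at 9.38 and 9.69 CPM against 7.96 and 4.36 with CHIR (0.60, SE 0.18). Without CHIR library 1, the log2 fold changes were 1.05 for Klf4 and 1.17 for Tbx3, in a fit left with 1 CHIR library. The count over all tested genes also moved with that library, so the share above holds for the fit on all libraries. The CHIR libraries stood apart for Klf4, at 6.37 and 2.67 CPM.

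PD0325901, which inhibits MEK, raised 4 members over CHIR, against 3.27% of tested genes that rose. Prdm14 rose most, from 0.173 and 0.141 to 1.93 and 1.86 CPM (3.54, SE 0.43, edgeR adjusted p = 1.1e-07). Klf2 rose from 34.2 and 25.7 to 114 and 89.2 CPM (1.76, SE 0.13), and Nr0b1 from 3.47 and 3.80 to 10.3 and 13.5 (1.70, SE 0.16). Tfcp2l1 rose from 23.5 and 26.4 to 53.4 and 47.5 CPM, with a log2 fold change of 1.02 (SE 0.16) that lies at the limit of the call. None of these 4 reached the EPSC libraries. Zfp42 (125 and 95.3 CPM against 62.1 and 52.6; 0.94, SE 0.10) and Esrrb (62.3 and 55.3 against 31.6 and 29.0; 0.96, SE 0.12) lay just under the limit, and their libraries did not overlap. Klf4, Klf5 and Tbx3 did overlap between the groups, with Klf5 at 47.3 and 31.7 CPM with PD0325901 and 50.7 and 38.4 with CHIR. For these 3 members library 2 was the lower in both groups. Deviations of same-numbered libraries correlated between the 2 groups over all tested genes (r of 0.43). The fits named next leave out a library of 1 group only and do not keep that match. Leaving out CHIR library 1, or PD0325901 library 2, gave 7 members called instead of 4, and Tfcp2l1 was at 0.96 without CHIR library 1 and at 0.94 without PD0325901 library 1. Of the ERK feedback genes 5 of 10 fell with PD0325901. Nanog rose from a mean of 21.2 to 103 CPM, and 6 of 15 other naive genes rose. The endoderm marker sum was 15.4 to 16.6 CPM against 297 to 332 with CHIR, and 12 of 14 of those markers fell. Their part in the rise of the 4 factors was not tested.

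CD1530 activates the gamma form of the retinoic acid receptor. It divided the list. Klf4, Klf5, Tbx3 and Tfcp2l1 rose over CHIR, against 9.74% of tested genes that rose, and Klf2 and Nr5a2 fell, against 6.91% that fell. Klf4 rose from 6.37 and 2.67 to 55 and 54.4 CPM (3.54, SE 0.26, edgeR adjusted p = 4.8e-14). Tbx3 rose from 7.96 and 4.36 to 55 and 51.6 CPM (3.08, SE 0.18). Klf5 rose from 50.7 and 38.4 to 257 and 240 CPM (2.48, SE 0.13), where EPSCs had 379 and 396. Tfcp2l1 rose to 68.9 and 73.0 CPM (1.51, SE 0.16). Klf2 went the other way, from 34.2 and 25.7 to 2.69 and 3.66 CPM (−3.23, SE 0.15, edgeR adjusted p = 1.3e-19), its lowest level in the 26 groups. Nr5a2 likewise fell from 5.61 and 6.26 to 0.887 and 0.987 CPM (−2.65, SE 0.24). Esrrb (48.3 and 48.1 CPM; 0.67, SE 0.12), Nr0b1 (2.31 and 2.88; −0.47, SE 0.17), Zfp42 (67.1 and 67.8; 0.23, SE 0.10) and Prdm14 (10 and 8 counts; 0.38, SE 0.66) were not called. Of the 10 LIF and STAT3 genes 6 rose and 1 fell, with the LIF receptor gene Lifr at 90.7 CPM against 8.5 and Stat3 at 87.8 against 31.5. Of the 15 other naive genes 2 rose and 6 fell, with Pecam1 at 2.49 CPM against 42.8, and Nanog fell from 21.2 to 2.23 CPM. The endoderm markers rose in 12 of 14, with a sum of 2940 to 2960 CPM against 297 to 332, and Gata6 went from 11.5 to 140 CPM. The trophectoderm markers rose in 10 of 12. The part of these markers in the result was not tested.

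**Figure D3:**
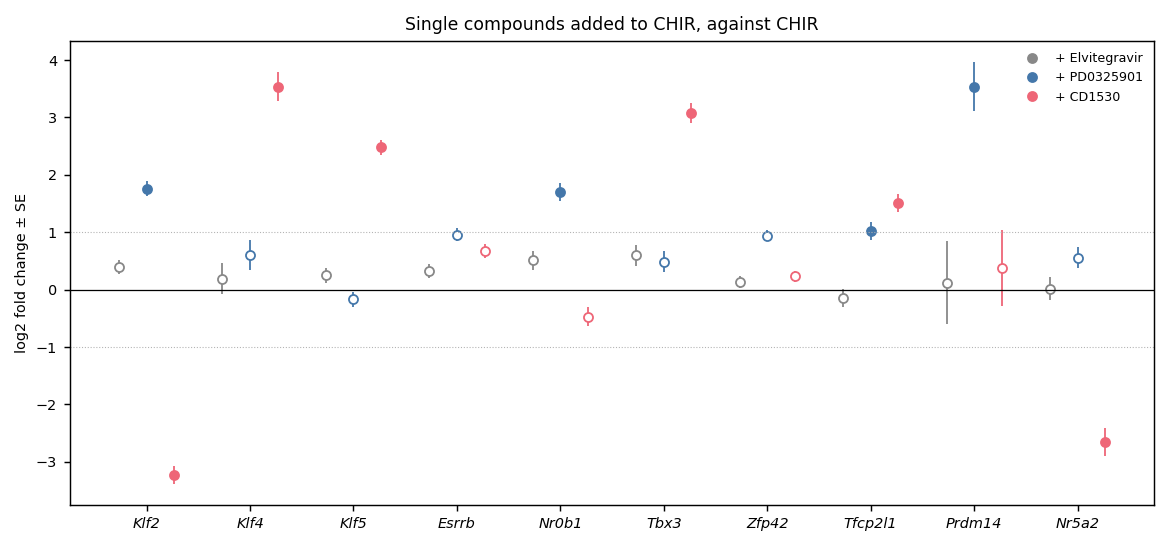
Log2 fold change (± SE) of the 10 factors with Elvitegravir, PD0325901 or CD1530 added to CHIR, each against CHIR. Filled points are called and open points are not, and dotted lines mark −1 and 1. Klf2 lies at 1.76 with PD0325901 and at −3.23 with CD1530, while Klf4 lies at 0.60 and 3.54.

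Set directly against each other, CD1530 and PD0325901 differed for 7 members. With CD1530, Klf4 (2.94, SE 0.24), Klf5 (2.64, SE 0.13) and Tbx3 (2.58, SE 0.17) were higher, against 8.52% of tested genes. Klf2 (−4.99, SE 0.15), Nr5a2 (−3.21, SE 0.23), Prdm14 (−3.16, SE 0.39) and Nr0b1 (−2.16, SE 0.16) were lower, against 8.03%. The Klf2 libraries stood at 2.69 and 3.66 CPM with CD1530 and at 114 and 89.2 with PD0325901. Klf2 was on one side of this comparison and Klf4 and Klf5 on the other.

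The totipotency medium, the arm that the design text lists as EPSCs given all small molecules, was set against these arms. Against CHIR with CD1530, Klf2 was higher in S1 (21.6 and 21.0 against 2.69 and 3.66 CPM; 2.73, SE 0.14), as were Nr5a2 (2.54, SE 0.23) and Prdm14 (1.87, SE 0.42), against 7.78% of tested genes. Klf4 (16.8 and 18.9 against 55 and 54.4 CPM; −1.62, SE 0.22) and Klf5 (−1.41, SE 0.13) were lower, against 3.51%. Zfp42 stood at 68.8 and 65.9 CPM against 67.1 and 67.8, a log2 difference of 0 (SE 0.10). Against CHIR with PD0325901 the order was turned. Tbx3 (2.49, SE 0.17), Klf4 (1.32, SE 0.23) and Klf5 (1.23, SE 0.13) were higher in S1, against 10.8% of tested genes. Nr0b1 (−2.53, SE 0.15), Klf2 (−2.26, SE 0.13) and Prdm14 (−1.29, SE 0.27) were lower, against 5.94%. Leaving out library 2 of the PD0325901 group ended the call for Klf4 (0.91), and leaving out S1 library 1 ended that for Prdm14 (−0.91).

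The same medium given to mESCs for 2 days lowered 5 members, against 8.26% of tested genes that fell. Nr0b1 fell from 73.4 and 66.2 to 11.3 and 9.99 CPM (−2.71, SE 0.14, edgeR adjusted p = 3.4e-18), and Klf5 from 331 and 331 to 67.7 and 64.6 (−2.32, SE 0.13). Klf4 fell from 440 and 419 to 127 and 124 CPM (−1.77, SE 0.22), Esrrb from 748 and 731 to 223 and 228 (−1.72, SE 0.12) and Tfcp2l1 from 1550 and 1730 to 725 and 717 (−1.19, SE 0.15). The other 5 kept more of their level. Klf2 stood higher in both treated libraries, 293 and 280 CPM against 163 and 150 (0.87, SE 0.12, edgeR adjusted p = 1.6e-07), short of the size needed for a call. Its mean there was the highest of the 26 groups over both sets, with libraries that overlapped those of P38 (232 and 281 CPM). Prdm14 stood at 66.2 and 65.5 against 57.3 and 55.6 CPM (0.22, SE 0.20), and Zfp42 at 212 and 210 against 231 and 237 (−0.15, SE 0.10). Nr5a2 (43.1 and 43.5 against 76.0 and 75.2 CPM; −0.80, SE 0.16) and Tbx3 (127 and 132 against 213 and 207; −0.70, SE 0.16) were not called. Of the 15 other naive genes 6 fell and 1 rose. Of the 10 ERK feedback genes 6 rose and 2 fell, where all 10 had fallen in EPSCs. Their summed level was nonetheless lower, at 328 CPM in treated against 524 in untreated mESCs. The feeder marker sum was 1030 to 1040 CPM in treated and 2190 to 2290 in untreated mESCs, and its part was not tested.

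The difference between the 2 responses was tested as such. The log2 response of mESCs exceeded that of EPSCs for 8 members, against 8.70% of tested genes. It was largest for Nr5a2 (3.98, SE 0.24), Klf2 (3.94, SE 0.18), Prdm14 (3.18, SE 0.32), Nr0b1 (3.01, SE 0.20) and Zfp42 (2.98, SE 0.15), and smaller for Esrrb (1.85, SE 0.17), Tfcp2l1 (1.54, SE 0.21) and Klf4 (1.52, SE 0.30). Klf5 (−0.27, SE 0.17) and Tbx3 (−0.31, SE 0.22) gave differences that were not called. The EPSC response came from the first set and the mESC response from the second, and cell line, starting medium and set cannot be told apart.

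**Figure D4:**
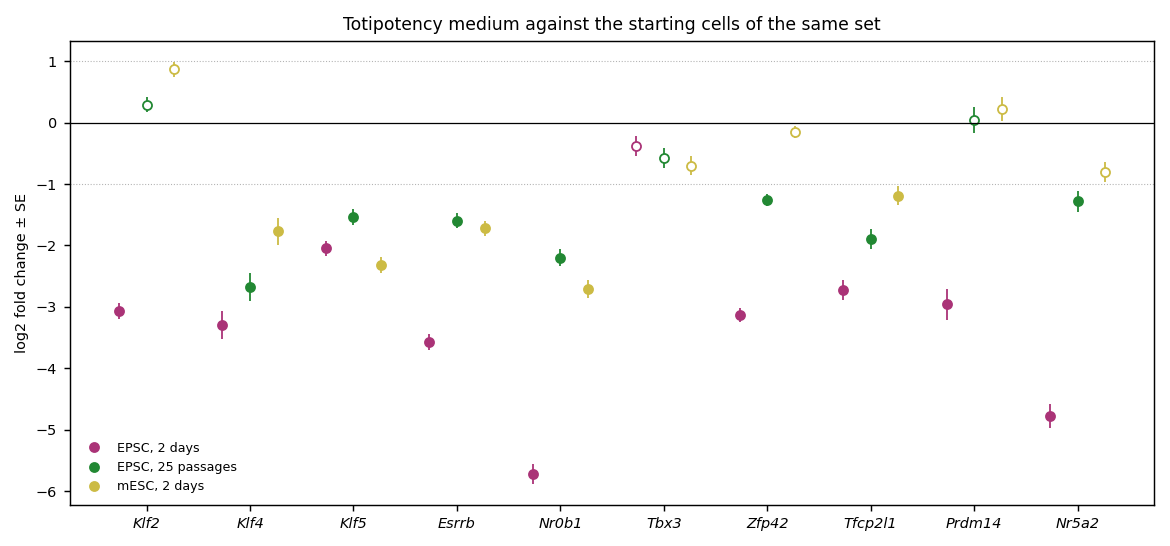
Log2 fold change (± SE) of the 10 factors in the totipotency medium for EPSCs after 2 days, EPSCs after 25 passages and mESCs after 2 days, each against the untreated cells of its own set. Filled points are called and open points are not, and dotted lines mark −1 and 1. For Klf2 the 3 points lie at −3.07, 0.29 and 0.87, and for Klf5 at −2.05, −1.53 and −2.32.

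Long passage in the totipotency medium lowered most of the naive factors. At P25, 7 members were lower than in EPSC libraries 3 and 4, against 5.5% of tested genes that fell. Klf4 fell most, from 420 and 437 to 64.3 and 69.4 CPM (−2.68, SE 0.23, edgeR adjusted p = 3e-12). Nr0b1 fell from 124 and 129 to 27.7 and 27.4 CPM (−2.20, SE 0.14), Tfcp2l1 from 1090 and 1200 to 311 and 300 (−1.90, SE 0.16) and Esrrb from 866 and 893 to 291 and 289 (−1.60, SE 0.12). Klf5 (148 and 150 CPM; −1.53, SE 0.13), Nr5a2 (42.7 and 45.1; −1.28, SE 0.17) and Zfp42 (205 and 222; −1.26, SE 0.10) fell less. Klf2 stood at 254 and 257 CPM against 206 and 211 (0.29, SE 0.12) and Prdm14 at 22.8 and 21.8 against 22.3 and 21.2 (0.04, SE 0.21), with overlapping libraries for Prdm14. Tbx3 was at 191 and 194 CPM against 277 and 298 (−0.58, SE 0.16). Of the 15 other naive genes 8 fell and 1 rose. Markers of other cell types moved as well. Of 12 trophectoderm markers 9 rose and 1 fell, with a sum of 1050 to 1090 CPM at P25 against 125 to 133 in these EPSCs. Of 14 endoderm markers 10 rose and 1 fell, with a sum of 104 to 109 CPM against 29.5 to 31.1. All 9 tested 2-cell markers rose, with a sum of 293 to 296 CPM against 0.108 to 0.16. The feeder marker sum was 1300 to 1310 CPM against 725 to 738. The part of these markers in the result was not tested.

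From P25 to P38 no member was called, against 0.339% of tested genes. The unadjusted edgeR p was under 0.05 for 5 members, and DESeq2 called 0. The largest difference was that of Nr0b1, at 42.6 and 40.6 CPM against 27.7 and 27.4 (0.59, SE 0.14). The feeder marker sum was 435 to 738 CPM at P38 against 1300 to 1310 at P25, and its part was not tested. The response at P25 exceeded the 2-day response for 6 members, against 4.76% of tested genes: Nr0b1 (3.52, SE 0.20), Nr5a2 (3.5, SE 0.24), Klf2 (3.37, SE 0.17), Prdm14 (3.00, SE 0.33), Esrrb (1.97, SE 0.17) and Zfp42 (1.87, SE 0.14). For Klf4 the difference was 0.61 (SE 0.31), for Klf5 0.52 (SE 0.17), for Tfcp2l1 0.82 (SE 0.21) and for Tbx3 −0.20 (SE 0.22). Duration and set cannot be told apart in this difference.

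Aggregates after 1 day in the 4C-64C medium (S2) were set against the P25 and P38 cultures, which are the S1-medium cells of the same set. The labels do not say from which S1 cells the aggregates were made. At S2, 4 members were higher, against 5.89% of tested genes. Klf5 rose most, to 612 and 631 CPM from 148 and 150 at P25 and 154 and 157 at P38 (2.03, SE 0.10, edgeR adjusted p = 2.4e-18). Tfcp2l1 rose to 894 and 938 CPM from 300 to 471 CPM over the 4 libraries (1.33, SE 0.13), and Tbx3 to 409 and 440 from 174 to 194 (1.20, SE 0.13). Klf4 stood at 145 and 150 CPM against 64.3 to 82.9, and its log2 fold change of 1.01 (SE 0.18) lay at the limit of the call, which DESeq2 (0.95) and leaving out P25 library 1, P38 library 2 or S2 library 2 ended. Klf2 alone fell, to 92.2 and 96.2 CPM from 232 to 281 (−1.44, SE 0.11), against 11.6% of tested genes. Nr0b1 (69.5 and 63.7 CPM; 0.98, SE 0.11) was just under the limit. Low counts were mostly even at S2 but not at P25 and P38, and with the counts halved in the libraries of mostly even counts the calls were unchanged save for Klf4. Of 12 Wnt and TCF genes 8 rose, with Axin2 at 320 CPM against 56.2 and 54.0, and 8 of 14 endoderm and 8 of 12 trophectoderm markers fell. The feeder marker sum was 260 to 270 CPM at S2, against 1300 to 1310 at P25 and 435 to 738 at P38. The part of these markers in the result was not tested.

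The second day in the same medium moved none of the factors past the call. Against 5.28% of tested genes, 0 of 10 members differed between S3 and S2, with 2 at an unadjusted edgeR p under 0.05 and 0 called by DESeq2. Klf2 stood at 133 and 121 CPM at S3 against 92.2 and 96.2 at S2 (0.43, SE 0.12), and Prdm14 at 23.4 and 25.1 against 16.6 and 17.6 (0.51, SE 0.20). Zfp42 was at 269 and 250 against 264 and 251 CPM, with overlapping libraries.

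By S5, in the peri-implantation medium, 7 members had fallen from S3, against 8.5% of tested genes. S4 lies between these stages without libraries, so its culture, the peri-implantation medium and the Aggrewell format cannot be told apart. Nr5a2 fell most, from 56.2 and 64.4 to 6.65 and 2.94 CPM (−3.65, SE 0.19, edgeR adjusted p = 2.3e-18). Prdm14 fell from 23.4 and 25.1 to 4.18 and 2.08 CPM (−2.95, SE 0.23) and Tfcp2l1 from 912 and 995 to 128 and 124 (−2.92, SE 0.16). Esrrb fell from 445 and 419 to 127 and 80.0 CPM (−2.06, SE 0.12), Tbx3 from 404 and 386 to 95.6 and 114 (−1.92, SE 0.16), Zfp42 from 269 and 250 to 101 and 76.4 (−1.55, SE 0.10) and Klf4 from 149 and 131 to 52.5 and 55.4 (−1.37, SE 0.22). The S5 libraries differ from each other more than those of S3 for Esrrb, Nr5a2 and Prdm14, with S5 library 1 the higher. Klf2 (67.5 and 70.4 CPM; −0.88, SE 0.12), Klf5 (270 and 340; −0.86, SE 0.12) and Nr0b1 (40.3 and 33.1; −0.88, SE 0.13) kept more and were not called, though their libraries did not overlap those of S3. Nr0b1 was at −1.03 without S5 library 1, and Klf5 at −1.04 without S5 library 2. Of 11 formative and primed epiblast genes 9 rose, with Otx2 at 126 CPM against 6.92 and Fgf5 at 69.8 against 0.115. Of 14 endoderm markers 12 rose, with a sum of 2720 to 3900 CPM against 183 to 186, and the part of those cells in the fall was not tested.

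Set against the full medium of their stage, the media lacking 1 agent gave 120 member values, of which 24 were called, and all 24 were lower without the agent. Some of these calls ended, and others arose, with the mean of the other 3 omission groups of the stage as the reference. At S2 the omission of 8Br-cAMP, a cell-permeable cyclic AMP analogue, lowered 3 members, against 1.28% of tested genes that fell. Prdm14 fell from 16.6 and 17.6 to 5.09 and 6.46 CPM (−1.55, SE 0.22, edgeR adjusted p = 4.5e-06), and Klf4 from 145 and 150 to 69.2 and 71.9 (−1.06, SE 0.22). Tbx3 went from 409 and 440 to 203 and 222 CPM, and its value of −1 (SE 0.16) lay at the limit, so that the mean of the other omission groups (−0.90), DESeq2 (−0.97), RLE scaling (−0.96) and leaving out S2 library 2 or library 1 of the group without 8Br-cAMP ended the call. All 10 members were below 0 in this comparison, from −1.55 to −0.37, and no library without 8Br-cAMP overlapped S2 for any of them. Such counts also arose where no member was called. At S2 without Birabresib 10 members were below 0, and the libraries of 9 did not overlap S2.

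At S3 the same omission lowered 7 members, against 3.80% of tested genes that fell. Prdm14 fell from 23.4 and 25.1 to 5.61 and 5.49 CPM (−2.13, SE 0.22, edgeR adjusted p = 1.6e-09), Nr0b1 from 69.4 and 65.4 to 18.2 and 20 (−1.82, SE 0.13) and Klf2 from 133 and 121 to 43.9 and 45.5 (−1.51, SE 0.12). Nr5a2 fell from 56.2 and 64.4 to 21.8 and 23.2 CPM (−1.42, SE 0.17), Tbx3 from 404 and 386 to 178 and 189 (−1.11, SE 0.16) and Tfcp2l1 from 912 and 995 to 453 and 437 (−1.10, SE 0.15), a call that ended against the mean of the other omission groups (−0.74). Klf4 fell from 149 and 131 to 67.5 and 68.4 CPM (−1.04, SE 0.22), a call that ended without S3 library 1 (−0.95). Esrrb (229 and 239 against 445 and 419 CPM; −0.88, SE 0.12), Zfp42 (−0.75, SE 0.10) and Klf5 (−0.62, SE 0.12) were lower in both libraries without a call. Pou5f1 fell too, from a mean of 246 to 97.2 CPM, and 7 of 15 other naive genes fell while 2 rose. Of 14 endoderm markers 9 fell, with a sum of 50.9 to 51.8 CPM against 183 to 186, and of 12 Wnt and TCF genes 4 rose. The part of these markers was not tested.

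Against the full medium, the other omissions at S2 and S3 moved 1 naive factor past the call. Without CD1530 at S3, Prdm14 fell from 23.4 and 25.1 to 9.52 and 10.6 CPM (−1.27, SE 0.21, edgeR adjusted p = 1.7e-05), against 3.82% of tested genes that fell, and the call ended against the mean of the other omission groups (−0.68). Nr0b1 stood higher without CD1530 at both stages, at 116 and 111 CPM against 69.5 and 63.7 at S2 (0.77, SE 0.13) and at 105 and 107 against 69.4 and 65.4 at S3 (0.66, SE 0.13). Without CHIR, Prdm14 stood at 31.9 and 30.8 CPM against 16.6 and 17.6 at S2 (0.87, SE 0.21) and at 42.5 and 41.4 against 23.4 and 25.1 at S3 (0.79, SE 0.20), while Tfcp2l1 stood lower, at 580 and 573 against 912 and 995 at S3 (−0.72, SE 0.15). None of these was called against the full medium. Against the mean of the other omission groups, Nr0b1 was higher without CD1530 (1.12 at S2, 1.53 at S3) and Prdm14 was higher without CHIR (1.58 at S2, 2.07 at S3), and these 4 values were called. Axin2 went from a mean of 453 to 14.9 CPM without CHIR at S3, and 7 of 12 Wnt and TCF genes fell there. Without Birabresib, an inhibitor of BET bromodomain proteins, Nr0b1 was the lowest value at S3, with 36.2 and 32.8 CPM against 69.4 and 65.4 (−0.97, SE 0.13), and it passed the limit without S3 library 2 (−1) or without library 1 of that group (−1.04). The counts of 0 stood against 2.98% of tested genes for Birabresib, 5.07% for CHIR and 2.33% for CD1530 at S2, and against 6.21% for Birabresib and 9.16% for CHIR at S3. Unadjusted edgeR p-values were under 0.05 for 4, 6 and 5 members at S2 and for 7 and 6 at S3 in that order, and DESeq2 called 0 in each. The shares above are for the call and not for this unadjusted limit.

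**Figure D5:**
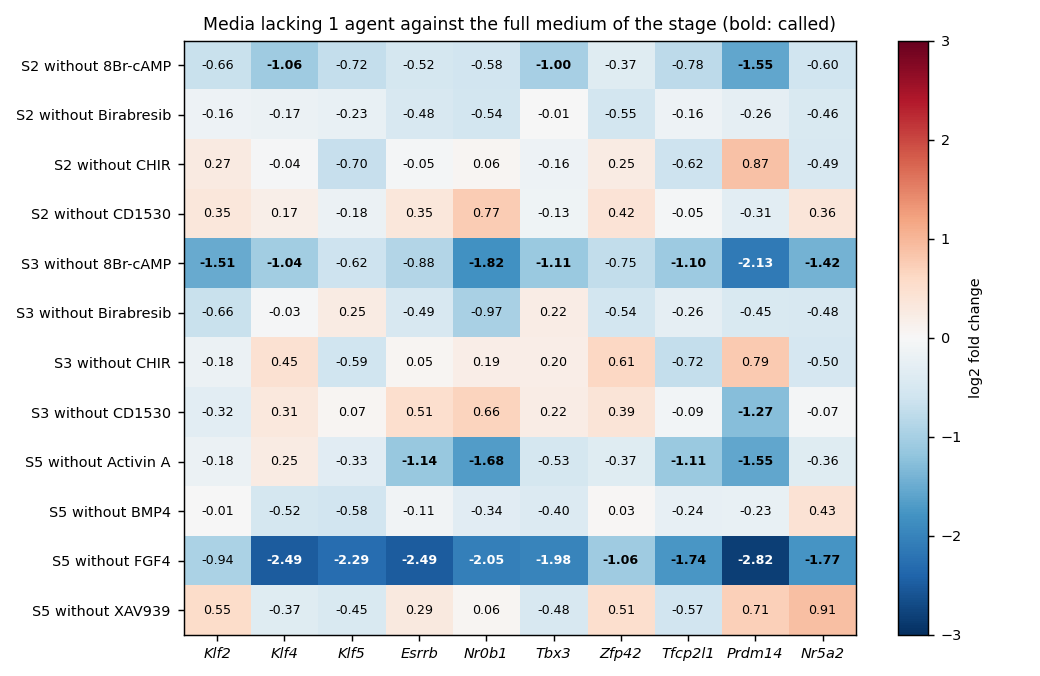
Log2 fold changes of the 10 factors in the 12 media that lacked 1 agent, each against the full medium of its stage. Colour runs from blue (lower without the agent) to red (higher), and bold values are called. The called values lie in the rows without 8Br-cAMP at S2 and S3, without CD1530 at S3, and without Activin A or FGF4 at S5.

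At S5 the omission of FGF4 lowered 9 of the 10 factors, against 2.53% of tested genes that fell. Prdm14 was at 0.177 and 0.673 CPM (8 and 36 counts) against 4.18 and 2.08 (−2.82, SE 0.31). Esrrb fell from 127 and 80.0 to 20.1 and 16.9 CPM (−2.49, SE 0.13, edgeR adjusted p = 1.4e-16) and Klf4 from 52.5 and 55.4 to 8.44 and 10.8 (−2.49, SE 0.23). Klf5 fell from 270 and 340 to 58.0 and 67.0 CPM (−2.29, SE 0.13), Nr0b1 from 40.3 and 33.1 to 8.5 and 9.19 (−2.05, SE 0.14) and Tbx3 from 95.6 and 114 to 25.2 and 27.9 (−1.98, SE 0.16). Nr5a2 (1.57 and 1.27 CPM; −1.77, SE 0.22), Tfcp2l1 (35.3 and 40.0; −1.74, SE 0.16) and Zfp42 (42.9 and 42.2; −1.06, SE 0.10) fell as well, and Zfp42 lost the call without S5 library 1 (−0.85). Klf2 stood at 34.9 and 37.0 CPM against 67.5 and 70.4 (−0.94, SE 0.12), and was called against the mean of the other omission groups (−1.06). For none of the 10 did a library without FGF4 overlap S5, and Esrrb and Zfp42 had their lowest level of the 26 groups. Without XAV939, where no member was called, the libraries of 8 members did not overlap S5 either. The core factors Pou5f1 (a mean of 363 CPM against 277) and Nanog (176 against 139) were not called. Of 15 other naive genes 7 fell, and of 10 LIF and STAT3 genes 5 fell, with Stat3 at 47.1 CPM against 104. Of 14 endoderm markers 12 fell, with a sum of 771 to 845 CPM against 2720 to 3900, and 8 of 12 trophectoderm markers fell, with a sum of 251 to 252 against 638 to 725 CPM. The part of these lineages in the loss was not tested.

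Without Activin A, a ligand of the TGF-beta family, 4 members were lower at S5, against 0.714% of tested genes that fell. Nr0b1 fell from 40.3 and 33.1 to 12.9 and 10.1 CPM (−1.68, SE 0.14, edgeR adjusted p = 6.9e-11) and Tfcp2l1 from 128 and 124 to 58.3 and 58.7 (−1.11, SE 0.15). Prdm14 fell from 4.18 and 2.08 to 0.984 and 1.16 CPM (−1.55, SE 0.28) and Esrrb from 127 and 80.0 to 49.8 and 44.4 (−1.14, SE 0.12), but both lost the call without S5 library 1 (Prdm14 −0.95, Esrrb −0.77), which left 2 members called. Against the mean of the other omission groups none of the 4 was called (Nr0b1 −0.90, Tfcp2l1 −0.26, Prdm14 −0.77, Esrrb −0.37), and Klf4 was higher (1.38). Against the full medium Klf4 was not called, at 70.3 and 58.3 CPM against 52.5 and 55.4 (0.25, SE 0.22). The endoderm marker sum was 3650 to 3790 CPM, within the 2720 to 3900 of S5. Otx2 fell from a mean of 126 to 43.4 CPM. Omission of BMP4 called 0 members, against 0.0559% of tested genes, and omission of the tankyrase inhibitor XAV939, which damps Wnt signalling, called 0, against 2.14%. Unadjusted edgeR p-values were under 0.05 for 5 and 8 members, and DESeq2 called 0 in both. Without XAV939, Nr5a2 stood at 8.37 and 9.70 CPM against 6.65 and 2.94 (0.91, SE 0.19), and Tfcp2l1 at 55 and 115 against 128 and 124 (−0.57, SE 0.15), with the libraries of that group far apart. Leaving out S5 library 1 put Nr5a2 past the limit in both omissions (1.14 without BMP4, 1.62 without XAV939) and Prdm14 past it without XAV939 (1.30). Nr5a2 also passed it without library 1 of the XAV939 group (1.01), and Tfcp2l1 fell without library 2 (−1.19). Against the mean of the other omission groups, Esrrb was higher without BMP4 (1.01), and without XAV939 Esrrb (1.53), Nr0b1 (1.42), Prdm14 (2.24) and Nr5a2 (1.48) were higher. That reference holds the group without FGF4, with means of 18.5, 8.85, 0.425 and 1.42 CPM for these 4 members. Esrrb was at a mean of 96.4 CPM without BMP4 and 104 in S5. Of 25056 tested genes, 68 were called against this reference for BMP4 and 386 for XAV939, in either direction.

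Across the 26 group means the members moved together to different degrees. Pearson's r of mean log2 CPM was at least 0.7 for 36 of 45 pairs of members, as a description over groups that share sets, starting cells and stage. Esrrb with Zfp42 and Esrrb with Tfcp2l1 gave the highest value, 0.95, and Esrrb had the highest median with the other 9 (0.89). Klf2 was the least alike, with a median of 0.66 and with its lowest value, 0.19, against Klf5. The span between the highest and the lowest group was widest for Prdm14 (8.01 on the log2 scale) and narrowest for Zfp42 (3.79). In the order of the 26 levels, which mixes both sets, the libraries of neighbouring groups overlapped in 6 of 25 steps for Esrrb and in 14 of 25 for Klf4 and Nr5a2. The order therefore separates groups that lie several steps apart better than neighbours.

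The groups of highest and lowest level differed among the factors, and some were shared. Klf2 was highest in mESCs after the totipotency medium, P38 and P25, and lowest in CHIR with CD1530. The Klf2 libraries of treated mESCs (280 and 293 CPM) overlapped those of P38 (232 and 281 CPM). Klf4 and Tfcp2l1 were highest in mESCs and next in EPSC libraries 3 and 4, and lowest in CHIR (Klf4) and CHIR with Elvitegravir (Tfcp2l1). Klf5 and Tbx3 were highest at S3 without Birabresib, with 631 and 687 CPM and 446 and 475 CPM. The Tbx3 libraries of that group overlapped those at S3 without CD1530 (449 and 471 CPM). Esrrb and Nr0b1 were highest in EPSC libraries 3 and 4, and Zfp42 and Nr5a2 in EPSC libraries 1 and 2. Prdm14 was highest in treated mESCs (66.2 and 65.5 CPM) and next in untreated ones.

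Among 11424 other genes, with numbered Gm genes and Rik genes left out, those most like a member over the 26 group means were named by rank of r. For Klf4 these were Stat3 (0.945), Arid5b (0.94) and Abca1 (0.919), where Stat3 encodes the transcription factor that LIF activates. For Klf2 they were the adhesion molecule gene Pecam1 (0.912), Rbmxl2 (0.892) and Nanog (0.87), and for Klf5 Gpr108 (0.902), Plod1 (0.9) and Mboat7 (0.9). Cobl was first for both Esrrb (0.951) and Nr0b1 (0.936), and the histone acetyltransferase gene Kat6b was first for Nr5a2 (0.95). The pseudogene Zfp42-ps1 was first for Zfp42 (0.979), and its reads may be shared with it. Zfp704 (0.937) led for Tbx3, Fbrsl1 (0.95) for Tfcp2l1 and the autophagy kinase gene Ulk1 (0.933) for Prdm14.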

How the data were processed

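Poly(A) RNA was counted gene by gene in 52 libraries. Per the submitters' processing notes, the tools were Trimmomatic 0.39 for trimming, STAR 2.7.10b for alignment to mm10 and featureCounts 2.0.6 for counting. Neither the annotation nor the strand setting nor how read pairs were handled is stated in the sources used here. Raw counts of 55291 genes, as the authors deposited them, were the input, and every column was joined to 1 sample. Even numbers made up 66.8% to 80.5% of the counts from 1 to 10 in 46 libraries and 40.7% to 42% in 6.

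Groups follow the treatment in the labels, with the EPSC libraries split by set. Genes were kept with filterByExpr of edgeR 4.0.16 (minimum count 10), scaled with TMM factors and fitted over all libraries with 1 mean per group (limma 3.58.1, R 4.3.3). Each of 29 comparisons was tested with the quasi-likelihood F test, with p-values adjusted by the Benjamini-Hochberg method over the 25056 tested genes. Called genes had an adjusted p under 0.05 and a log2 fold change of at least 1 in size. The SE was obtained from the log2 fold change and F. The test was tried on simulated data. Coordinates come from GENCODE M21 on mm10 and promoter windows from RefSeq. Likeness used group means of log2 CPM with 0.1 added, among tested genes that reached 10 CPM in a group. Members, numbered Gm genes and Rik genes were left out of that ranking.

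The members and all gene lists were chosen with earlier results of these data known. Beside the 10 members, the text names at most 3 called genes of smallest adjusted p per list and comparison, some of a short list of markers (Otx2, Pou5f1, Nanog, Sox2, Tcf7l1, Gata6, Cdx2, Krt18, Spry4, Axin2, Socs3, Klf17 and Tfap2c), and some of the 3 genes most like each member. Alternatives were RLE scaling, no filter, DESeq2 1.42.0, halved counts, the libraries of a comparison's own family, a replicate block, other reference groups and leaving out each library, where the trend of the dispersion was kept from the full fit.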

Additional observations from a re-analysis of the deposited data

Results flagged for a closer look

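The response of a member to the totipotency medium differed between starting cells or durations in 14 called differences, all higher than the 2-day response of EPSCs (edgeR quasi-likelihood test of the difference of responses). Between starting cells 8 of 10 members were called, against 8.7% of tested genes that rose. Between durations 6 of 10 were called, against 4.76%. Between mESCs and EPSCs, both after 2 days, the called differences on the log2 scale were 3.94 for Klf2, 1.52 for Klf4, 1.85 for Esrrb, 3.01 for Nr0b1, 2.98 for Zfp42, 1.54 for Tfcp2l1, 3.18 for Prdm14 and 3.98 for Nr5a2. Between 25 passages and 2 days in EPSCs they were 3.37 for Klf2, 1.97 for Esrrb, 3.52 for Nr0b1, 1.87 for Zfp42, 3.00 for Prdm14 and 3.5 for Nr5a2. Differences not called were −0.27 for Klf5 and −0.31 for Tbx3 between starting cells. Between durations those not called were 0.61 for Klf4, 0.52 for Klf5, 0.82 for Tfcp2l1 and −0.20 for Tbx3. Both families of differences share the 2-day EPSC libraries and EPSC libraries 1 and 2. In each, 1 response comes from the first set and 1 from the second, so that the set cannot be told apart from cell line or duration. No group had more than 2 libraries, so no single library could be tested as standing apart from its group.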

How the results depend on the processing

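With 2 libraries per group, 1 library can move a value across the limit of the call. Over all alternatives 3153 member values stayed on their side of the call, 34 gained it, 32 lost it and 1 gained it with a changed sign. Changes of sign between values that were not called in either fit were not counted. Leaving out 1 library at a time gave from 0 to 2 members called for Elvitegravir, 3 to 7 for PD0325901 against CHIR, 0 to 1 at S3 without Birabresib, and at S5 2 to 4 without Activin A, 0 to 1 without BMP4 and 0 to 2 without XAV939. With the mean of the other 3 omission groups as the reference in place of the full medium, 1 member was called at S2 without CHIR (Prdm14, 1.58), 1 at S2 without CD1530 (Nr0b1, 1.12), 1 at S3 without CHIR (Prdm14, 2.07), 1 at S5 without Activin A (Klf4, 1.38, where the full medium gave 4 lower members), 1 at S5 without BMP4 (Esrrb, 1.01, which reversed its −0.11) and 4 at S5 without XAV939 (Esrrb 1.53, Nr0b1 1.42, Prdm14 2.24 and Nr5a2 1.48). With the same reference Nr0b1 gained a call (1.53) and Prdm14 lost its own (−0.68) at S3 without CD1530, Klf2 gained one at S5 without FGF4 (−1.06), and Tbx3 at S2 (−0.90) and Tfcp2l1 at S3 (−0.74) lost theirs without 8Br-cAMP. That reference holds the group without FGF4 at S5 and those without 8Br-cAMP at S2 and S3.

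Deviations of same-numbered libraries correlated with r from −0.03 to 0.43, the latter for CHIR and PD0325901, and otherwise at most 0.06. Same-numbered libraries of CHIR and PD0325901 thus deviated alike in part, and those of the other groups compared hardly did. A fit with the replicate number as a block gave 2 called members instead of 3 at S2 without 8Br-cAMP (Tbx3 −0.99) and changed no other call of a member. No paired analysis was possible for mESCs against EPSCs, P25 against EPSCs and the difference of the P25 and 2-day responses, because EPSC libraries 3 and 4 share no number with them. With the libraries of the S5 family alone, Prdm14 without Activin A lost its call (edgeR adjusted p = 0.088). With the means over all groups of each stage, Klf5 (−1.41) and Nr0b1 (−1.29) also fell from S3 to S5. An alternative chosen after seeing the data left out library 2 of both CHIR and PD0325901: Zfp42 then rose with PD0325901 (1.01), and S1 against PD0325901 lost Klf4 (0.85) and Klf5 (0.96). Depth limits Prdm14, with 4 to 10 counts per library in CHIR alone, with Elvitegravir and with CD1530.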
